A study of Mus musculus with 6 samples.

Results

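The 6 mature arms of the miR-142a, miR-150 and miR-342 hairpins were followed in mouse pancreas. They were taken by name from a table of 1414 mature miRNA arms, in which they are listed as mmu-miR-142a-3p, mmu-miR-142a-5p, mmu-miR-150-5p, mmu-miR-150-3p, mmu-miR-342-3p and mmu-miR-342-5p. The study sequenced small RNA from pancreas of C57BL/6 mice weighing 22 to 25 g, with no age given in the sources used here. The 3 control libraries (43, 44 and 45) came from mice injected with saline. The 3 model libraries (56, 57 and 59) came from mice given caerulein at a stated 50 mg/kg together with lipopolysaccharide (LPS), as a model of acute pancreatitis. Both groups received 7 intraperitoneal injections at intervals of 1 hour, the final one including LPS for model mice, and pancreas was collected 24 hours from the first step. Caerulein is a cholecystokinin analogue that overstimulates acinar cells, and LPS is a bacterial cell wall component. Neither agent was given by itself, and the effects of the pair cannot be told apart. Whether each library is a separate mouse is not given in the labels, and the p-values therefore speak only of the spread among these libraries, some of which may be technical.

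A miRNA hairpin yields a 5p and a 3p arm. Usually one of them, the guide, is kept in the silencing complex and pairs with messenger RNAs through its seed, while the other is mostly degraded. miR-142 is made throughout the blood lineage and is used as a marker of leukocytes of every kind. miR-150 accumulates in mature B, T and natural killer cells, where it restrains the transcription factor Myb. miR-342 is transcribed with its host gene Evl and is expressed in lymphoid and myeloid cells. In healthy pancreas, leukocytes are few beside acinar cells, and acute pancreatitis brings in neutrophils and monocytes. In whole tissue, fewer cells of a type and less RNA per cell cannot be told apart.

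The sequences below separate the 4 arms of miR-142a and miR-342 and an RNA from the opposite strand of the miR-142a locus. They are from RefSeq on GRCm38.p6, which holds 5 of the 6 arms, and read 5′ to 3′ with the seed (bases 2 to 8) in capitals.
miR-142a-5p: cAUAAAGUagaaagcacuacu
miR-142a-3p: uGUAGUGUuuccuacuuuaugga
miR-342-5p: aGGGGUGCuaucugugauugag
miR-342-3p: uCUCACACagaaaucgcacccgu
miR-142b: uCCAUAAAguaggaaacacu
The seeds of miR-142a-5p, miR-142a-3p, miR-342-5p, miR-342-3p and miR-150-5p were each found in 0 other rows of the table. The seed of miR-150-3p was shared by 1 predicted row. No arm had 16 consecutive bases in common with another row of the table. The 20 bases of miR-142b are the exact complement of bases 4 to 23 of miR-142a-3p.

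Each arm of miR-142a had at least 307 counts in every library, so the hairpin is shown with both mature arms in capitals.
Mir142: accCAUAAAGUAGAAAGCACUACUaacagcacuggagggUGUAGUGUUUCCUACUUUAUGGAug
In the fold that RNAfold predicts for this RNA, 19 bases of each arm pair with the other arm. Mir142 lies at chr11:87756864-87756927 on the plus strand, in an intron of the noncoding host Mir142hg, and Mir142b overlaps it at chr11:87756841-87756955 on the minus strand. Mir150 lies at chr7:45121757-45121821 on the plus strand and overlaps no other annotated gene; the nearest, Gm45552, starts 96 bp away. Mir342 lies at chr12:108658620-108658718 on the plus strand, in an intron of Evl.

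Total counts ran from 1943693 to 3006220 per library, and 0 counts in a library allowed up to 0.998 to 1.54 CPM (counts scaled to a common total). Levels below are CPM scaled by TMM factors, which set the typical miRNA equal between libraries. The label pancreas was checked against acinar and islet miRNAs. The summed level of 8 acinar arms was 60514 to 97164 CPM in control and 50646 to 54275 CPM in model libraries, and miR-375-3p, the leading islet miRNA, was at 30851 to 69441 CPM. Control library 45 held the highest acinar sum. Of 499 rows that passed the filter on low counts, the model group was higher in 5 and lower in 1 (edgeR quasi-likelihood test, Benjamini-Hochberg adjusted p under 0.05), which is 1.2% of rows. The filter kept 5 of the 6 arms, all but miR-150-3p. By edgeR 0 of these 5 passed that threshold, 1 had an unadjusted p under 0.05 (23.8% of all rows did), and DESeq2 called 1 (7.65% of the rows to which it gave an adjusted p).

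In order of mean level in control libraries, miR-150-5p stood first at 4404 ± 769 CPM, followed by miR-142a-3p at 337 ± 184, miR-342-3p at 300 ± 45.2 and miR-142a-5p at 269 ± 171 CPM (n = 3 each, SD). These last 3 did not differ beyond their spread. The scarce arms were miR-342-5p at 13.9 ± 1.64 CPM and miR-150-3p at 2.02 ± 0.92 CPM. In model libraries miR-150-5p was again first at 3454 ± 2228 CPM, and miR-142a-3p was second at 922 ± 229 CPM. The arms are 21 to 23 nt long and 1 read covers a whole arm, so no length correction applies, but ligation bias can distort levels between miRNAs.

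The pan-leukocyte miR-142a-3p was at 522, 154 and 336 CPM in control libraries 43, 44 and 45, and at 851, 1178 and 738 CPM in model libraries 56, 57 and 59. Each model library lay above each control, as was so for 14.4% of all rows tested. The mean level was 337 ± 184 CPM in control and 922 ± 229 CPM in model libraries (n = 3 each, SD). Its log2 fold change came to 1.45 (SE 0.44, 95% interval 0.43 to 2.47, edgeR adjusted p = 0.111), the 52nd lowest p among the rows tested. The result thus missed the threshold over all rows. With DESeq2 on the same counts the adjusted p was 0.0298 (log2 fold change 1.43), and over all alternatives it ran from 0.000125 without a filter on low counts to 0.238 without model library 57. On the authors' own scale, RPM, which divides by a larger library total, the values were 48.6, 11.6 and 20.7 in control libraries. In model libraries they were 94.4, 174 and 102. With those totals the adjusted p was 0.0114 (edgeR, log2 fold change 2.19), and 121 of 503 rows were called higher and 2 lower. Without the filter on low counts, 23 of 1414 rows were called higher and 35 lower.

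The other arm of the hairpin, miR-142a-5p, was at 465, 157 and 184 CPM in control and 444, 773 and 382 CPM in model libraries. Control library 43 lay above 2 of the model libraries, so the groups overlapped. This gave 0.99 on the log2 scale (SE 0.48, 95% interval -0.14 to 2.12, edgeR adjusted p = 0.266). The antisense miR-142b was scarce, with 7 to 13 counts in control and 13 to 31 counts in model libraries, and its difference, 0.45 on the log2 scale, was about the size of its SE of 0.41 (edgeR adjusted p = 0.583). Counts of the antisense and sense RNAs can be separated only if strand was used, and no source used here says so.

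**Figure D1:**
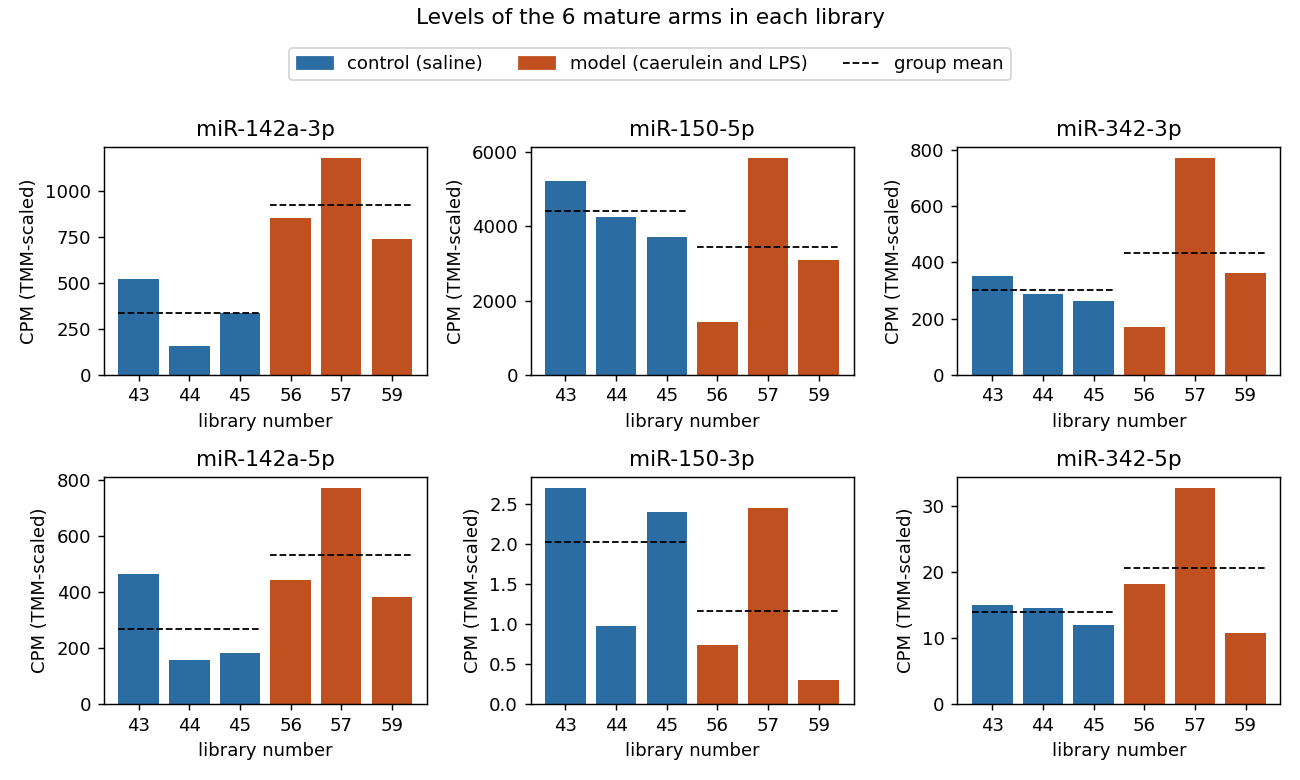
Each panel shows 1 mature arm, with its level in CPM (TMM-scaled, linear axis from 0) for each library as a bar and the group mean as a dashed line. All 3 model bars of miR-142a-3p stand above its control bars, while miR-150-5p and miR-342-3p have their lowest bar in model library 56 and their highest in model library 57.

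Lymphocyte-enriched miR-150-5p was the most abundant of the 6 arms and ranked 53rd of the 1414 rows by its mean share of counts. It was at 5235, 4259 and 3717 CPM in control and 1429, 5840 and 3093 CPM in model libraries. Model library 56 was the lowest and model library 57 the highest of the 6, so the groups overlapped. The highest control was 1.41 times the lowest, against 4.09 times among model libraries. The log2 change was -0.35 (SE 0.47, 95% interval -1.45 to 0.75, edgeR adjusted p = 0.735), an interval that spans both a decrease and an increase. Its sign turned without model library 56 (0.066) and with the authors' totals (0.48). The passenger arm miR-150-3p had 13 counts over the control and 11 over the model libraries. The ratio of its rates, model to control, was 0.575, and its 95% interval by an exact Poisson test was 0.233 to 1.39 (counting error only), so no difference was detectable at this depth.

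The Evl-hosted miR-342-3p was at 351, 286 and 264 CPM in control and 170, 771 and 362 CPM in model libraries. As for miR-150-5p, model library 56 was lowest and model library 57 highest. The log2 change was 0.53 (SE 0.50, 95% interval -0.64 to 1.71, edgeR adjusted p = 0.612), and it turned to -0.14 without model library 57. The other arm, miR-342-5p, was at 15.0, 14.6 and 12.0 CPM in control and 18.2, 32.8 and 10.8 CPM in model libraries, with overlapping groups (log2 fold change 0.56, SE 0.43, edgeR adjusted p = 0.502; 0.081 without model library 57).

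**Figure D2:**
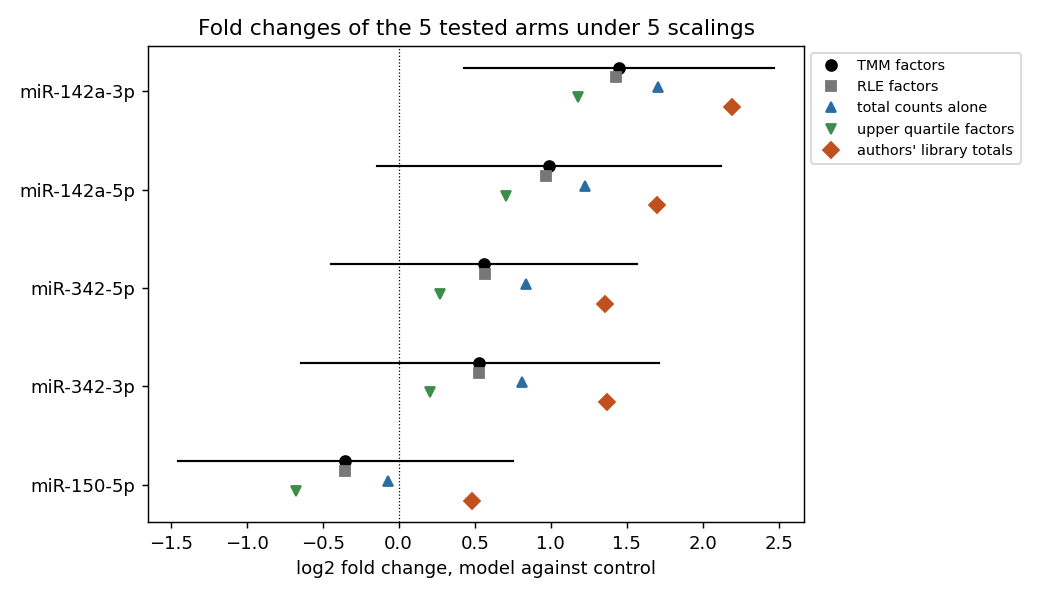
The log2 fold change of each tested arm, model against control, is plotted on the x axis under 5 ways of scaling the libraries, and the black line is the 95% interval with TMM factors. The values of miR-142a-3p run from 1.18 to 2.19, and those of miR-150-5p lie on both sides of 0.

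Scaling moved every arm together. Relative to TMM factors, the median over all rows moved by 0.30 with total counts alone, -0.29 with upper quartile factors and 0.79 with the authors' totals. Ratios of 2 miRNAs within a library do not depend on that choice. Groups were compared for 6 such ratios, with 1 count added to each miRNA, by an exact permutation test (two-sided), whose smallest p with 3 libraries a group is 0.1. The 6 ratios share miRNAs and are not independent. How often ratios of other miRNAs separate the groups was not counted.

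The ratio of miR-342-3p to miR-150-5p hardly varied within groups and differed between them. For every 100 counts of miR-150-5p there were 6.71, 6.71 and 7.12 counts of miR-342-3p in control libraries 43, 44 and 45, and 11.9, 13.2 and 11.7 in model libraries 56, 57 and 59. Thus each model library lay above each control by a margin larger than the spread of either group. The log2 ratio was -3.87 ± 0.050 in control and -3.03 ± 0.094 in model libraries (n = 3 each, SD), a difference of 0.84 or 1.79-fold (exact permutation p = 0.1; adjusted over the 6 ratios, p = 0.1). The pooled SD within groups, 0.075, was close to the counting error of the ratio, 0.031 to 0.071 per library. Among 365 miRNAs with a mean of at least 10 CPM, miR-342-3p ranked 1st by how little its ratio to miR-150-5p varied within groups, where the median was 0.83. This ranking was made after the values had been seen and is a description. The difference was 0.79 to 0.87 when any 1 library was left out.

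**Figure D3:**
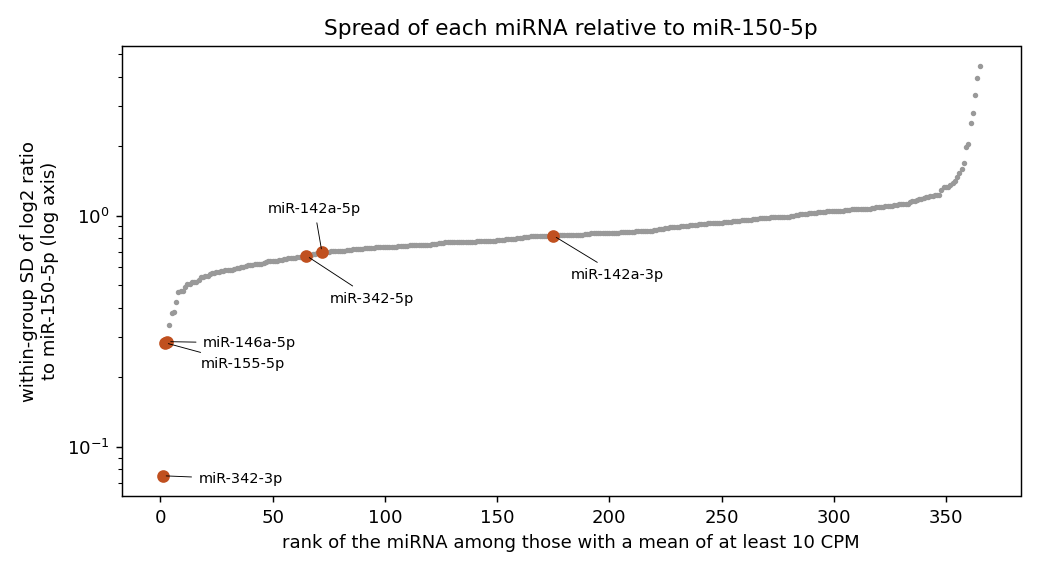
Each point is 1 of 365 miRNAs, with its rank on the x axis and, on a log y axis, the pooled within-group SD of its log2 ratio to miR-150-5p. The point for miR-342-3p lies lowest at 0.075, apart from miR-155-5p and miR-146a-5p at 0.28 and 0.29, and miR-142a-3p sits among the bulk at 0.82.

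The ratio of miR-142a-3p to miR-150-5p varied far more within groups. It was 0.0998, 0.0363 and 0.0905 in control and 0.596, 0.202 and 0.239 in model libraries, so the groups did not overlap. On the log2 scale it was -3.86 ± 0.80 in control and -1.71 ± 0.84 in model libraries (n = 3 each, SD), a difference of 2.15 or 4.44-fold (exact permutation p = 0.1; adjusted p = 0.1 over 6 ratios). The ratio of miR-142a-3p to miR-342-3p was 0.541 to 1.49 in control and 1.53 to 4.99 in model libraries, a 2.48-fold difference with the same p-values. Model library 56 had the highest value of both. The share of the 6 arms' counts that was miR-150-5p was 83.1% ± 4.05 in control and 61.5% ± 10.8 in model libraries (n = 3 each, SD), and the 6 arms together took 0.486% ± 0.144 and 0.593% ± 0.313 of all counts.

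Relative to the neutrophil and monocyte miRNA miR-223-3p, miR-142a-3p, miR-150-5p and miR-342-3p were each lower in all 3 model libraries than in all 3 controls. miR-223-3p itself was at 471, 247 and 246 CPM in control and 2232, 2133 and 2121 CPM in model libraries (log2 fold change 2.75, edgeR adjusted p = 0.0077). It ranked 2 by p among the rows tested, and the median log2 fold change over all rows was 0.0050. A row with no change of its own would thus also be lower relative to miR-223-3p. The direction of these 3 ratios was largely set by the choice of miR-223-3p and is not particular to the 3 arms. The ratio of miR-150-5p to miR-223-3p was 11.1, 17.2 and 15.0 in control and 0.640, 2.74 and 1.46 in model libraries, 10.4 times lower on the mean log2 scale. The ratio of miR-342-3p to miR-223-3p was 5.82 times lower and that of miR-142a-3p 2.34 times lower. For these 3 ratios too the exact permutation p was 0.1, and the adjusted p over 6 ratios was 0.1.

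**Figure D4:**
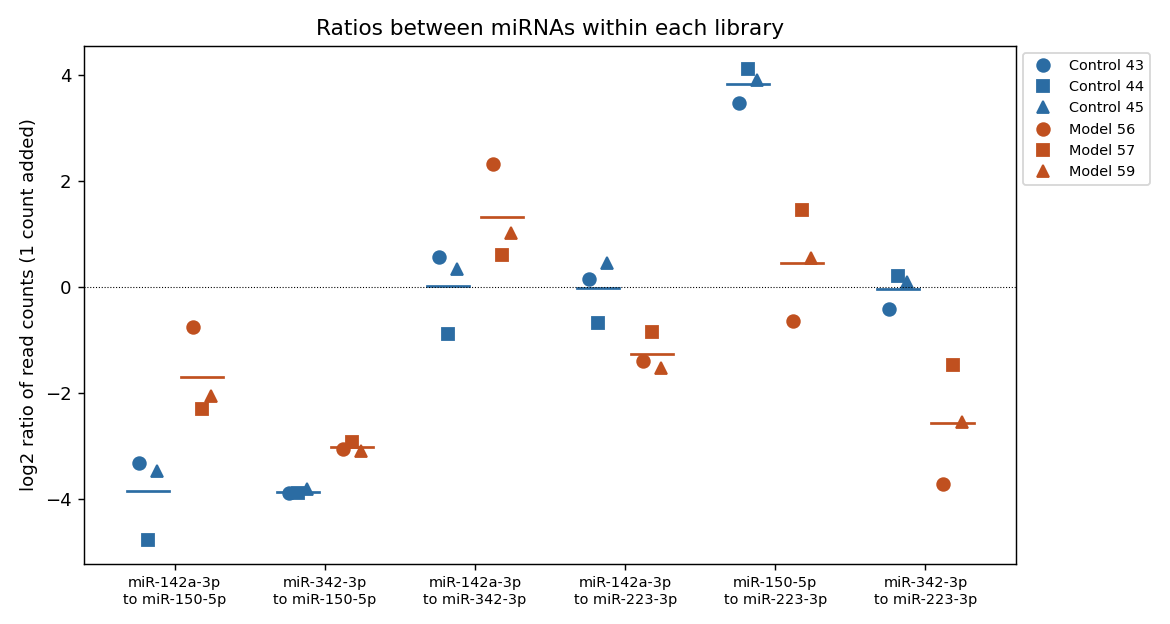
The y axis gives the log2 ratio of read counts of 2 miRNAs within a library, 1 point per library, and the horizontal bars are group means. Groups are separate in all 6 ratios, which share miRNAs and are not independent. How often ratios of other miRNAs separate the groups was not counted. The points of miR-342-3p to miR-150-5p nearly coincide within each group.

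The balance of the arms was compared over 125 hairpins whose arms both averaged 10 counts or more, of which 0.8% passed the threshold (limma, adjusted p under 0.05). For miR-142a the log2 ratio of 5p to 3p was -0.17, 0.023 and -0.87 in control and -0.94, -0.61 and -0.95 in model libraries. Both arms were thus present in every library, with the 3p arm the higher in each model library. Between groups the ratio differed by -0.50 (SE 0.34, limma adjusted p = 0.563). For miR-342 the 3p arm dominated, with a log2 ratio of -4.39 ± 0.13 in control and -4.26 ± 0.95 in model libraries (n = 3 each, SD; difference 0.13, SE 0.49, limma adjusted p = 0.956; -0.40 without model library 56). For miR-150 the 5p arm dominated, with log2 ratios of 10.3 to 12.3 over the 6 libraries. Its 3p arm was too scarce for the test.

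Other leukocyte miRNAs, from lists chosen with earlier results of these data known, did not share one pattern. Over all rows tested, 1.2% were called by edgeR, 7.65% by DESeq2 and 23.8% had an unadjusted p under 0.05, while 248 rows had a negative log2 fold change. In the myeloid list (miR-223 and the macrophage miR-511), 1 of 3 tested arms was higher and 0 lower by edgeR, 2 were called by DESeq2, 2 had an unadjusted p under 0.05, and the median log2 fold change was 1.78, against 0.0050 over all rows. Macrophage miR-511-3p had a log2 fold change of 0.067 (edgeR adjusted p = 0.964). In the miR-181 list, a family abundant in developing lymphocytes and also expressed in many other tissues, 0 of 7 arms passed by edgeR or DESeq2, 3 had an unadjusted p under 0.05, 6 were negative and the median was -0.33. Its leading member miR-181a-5p was at 24909 ± 3238 and 19768 ± 936 CPM (SD, n = 3 each; log2 fold change -0.33, edgeR adjusted p = 0.17). In the leukocyte activation list, 1 of 4 tested arms was higher and 0 were lower by edgeR, 3 were called by DESeq2 and 3 had an unadjusted p under 0.05, with a median of 2.13. The called arm was miR-147-3p, and miR-155-5p, which activated lymphocytes and macrophages induce, had a log2 fold change of 2.91 (edgeR adjusted p = 0.0564). The most abundant arm of this list, miR-146a-5p, had overlapping groups and a log2 fold change of 0.73 (edgeR adjusted p = 0.246).

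Markers of other cell types were read beside these values. Erythroid miRNAs, a measure of red cells in the tissue, summed to 10766 to 13766 CPM in control and 7181 to 12277 CPM in model libraries. By edgeR or DESeq2 0 of 7 arms were called, and 0 had an unadjusted p under 0.05. In this list miR-486a-5p and miR-486b-5p had the same level in every library, and both enter the sum and the 7 arms. Model library 57, which had the highest miR-150-5p, miR-342-3p and miR-142a-3p, had the lowest erythroid sum, 7181 CPM, and model library 56 had 12277 CPM. With TMM factors, the acinar, islet and endothelial sums lay lower in each model library than in each control. So did the miR-181 sum, at 25212 to 32408 CPM in control and 22743 to 24752 CPM in model libraries. The share of all rows lying lower in this way was not counted. Under 2 other scalings, tried after seeing the data, this separation changed. With total counts alone it held for the islet list, and the acinar, endothelial and miR-181 sums overlapped. With the authors' totals the acinar, endothelial and miR-181 sums lay higher in each model library, and the islet sums overlapped. The acinar sum was 60514 to 97164 CPM in control and 50646 to 54275 CPM in model libraries. In the same order, the islet sum was 59266 to 81204 and 39071 to 52268 CPM, and the endothelial sum 40568 to 47690 and 32211 to 37872 CPM. The islet sum was mostly miR-375-3p (log2 fold change -0.73). Of the other tested islet arms, miR-184-3p was at -0.71 and miR-7a-5p at 0.0050. The endothelial sum was mostly miR-126a-3p (-0.36), while its partner miR-126a-5p was at 0.12 with overlapping groups. The stromal sum overlapped, at 18091 to 27991 and 17317 to 20913 CPM. By edgeR 0 of 8 acinar, 0 of 3 islet, 0 of 2 endothelial and 0 of 5 stromal arms were called. At an unadjusted p under 0.05 there were 3, 1, 1 and 1 of them in that order, and DESeq2 called 1 acinar arm and 0 of the others. In model libraries 56 and 57, which differed most in miR-150-5p, the acinar sums were 54275 and 50646 CPM, the islet sums 52268 and 48039, the endothelial sums 37785 and 37872, and the stromal sums 20913 and 20089. The part of these cell types in the levels of the 6 arms was not tested.

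By Pearson's r of log2 CPM over the 6 libraries, given as a description among 361 other known miRNAs, the patterns most like that of miR-142a-3p were those of miR-340-5p (0.95), miR-223-5p (0.948) and miR-1839-5p (0.947). For miR-150-5p they were miR-296-5p (0.928), miR-744-5p (0.922) and miR-34c-3p (0.901), and for miR-342-3p they were miR-350-3p (0.916), miR-140-3p (0.871) and miR-146a-5p (0.865). The r of miR-744-5p leans on model library 56, where it was near the floor at 0.37 CPM, against 83.7 to 238 CPM in the other libraries. These r values share library depth and the difference between groups. After the group means were taken off, r between miR-150-5p and miR-342-3p was 0.997, against 0.794 before, and r between miR-150-5p and miR-142a-3p was 0.327, against -0.177 before.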

How the data were processed

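RNA between 18 and 30 nt was isolated on a gel, ligated to adapters with unique molecular identifiers and amplified by PCR, per the labels' protocols. The authors deposited read counts per mature arm, without normalization per the file headers, and RPM values, which the deposited table scales by library totals of 22055639 to 27876715 recovered here. No source used here gives what these totals count or whether reads were collapsed on identifiers. The interval by the exact Poisson test covers counting error only. The edgeR intervals rest on the SE of the quasi-likelihood fit and also include the spread among libraries. The submitters' processing notes name Bowtie2 and GRCm38.p6. Lengths of mature sequences are as deposited by the authors.

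Counts of all 1414 rows were fitted with edgeR 4.0.16 in R 4.3.3 (filterByExpr with minimum count 10 and minimum total 15, TMM factors, robust quasi-likelihood test, Benjamini-Hochberg adjustment over 499 rows). DESeq2 1.42.0 was an alternative, and limma 3.58.1 tested arm ratios with 1 count added. Replicates differed by more than sampling noise (chi-square per degree of freedom at least 98.7). In all, 14 rows repeat another row's sequence and counts; none is among the 6 arms. The arms, lists and tests were chosen with earlier results of these data known. Named miRNAs are the 6 arms, the 3 rows most like each main arm, leading rows of each list, and rows sharing a seed or sequence. Also named are rows whose ratio to an arm varied least within groups. So are miR-147-3p, miR-511-3p, miR-486a-5p and miR-486b-5p, which are not leading rows of their lists. Of the leading rows, the text names only some, a choice made after their values were seen.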

Additional observations from a re-analysis of the deposited data

How the results depend on the processing

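No paired analysis was possible because the groups share no replicate numbers. The 6 calls over all rows became 15 with RLE factors, 18 with total counts alone, 45 with upper quartile factors, 123 with the authors' totals, 58 without a filter on low counts, 38 with DESeq2 and 15 with known miRNAs only, and 3 to 10 without 1 library. The cause was not tested. The log2 fold change of miR-142a-3p was positive in all 15 alternatives (1.09 to 2.19, and 1.09 to 1.90 without 1 library). Its adjusted p was under the threshold in 3 of them: DESeq2, the authors' totals and no filter on low counts. Over all rows, DESeq2 called 38 of 497 with an adjusted p, the authors' totals 123 of 503 and the fit without a filter 58 of 1414. Those of miR-142a-5p (0.64 to 1.70) and miR-342-5p (0.081 to 1.36) stayed positive and uncalled in all 15. The sign turned for miR-150-5p with the authors' totals (0.48) and without model library 56 (0.066; range without 1 library -0.93 to 0.066). It also turned for miR-342-3p without model library 57 (range -0.14 to 0.96) and for the arm ratio of miR-342 without model library 56 (range -0.40 to 0.51). The 6 ratios between miRNAs kept their direction in all 7 alternatives each. The number of hairpins with a called arm ratio was 1 in all 8. With 3 libraries per group, a change of the size measured for miR-342-3p or miR-150-5p lay within the spread of the model libraries.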

Other observations

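After miR-342-3p, the miRNAs whose ratio to miR-150-5p varied least within groups were miR-155-5p and miR-146a-5p (SD 0.283 and 0.286 on the log2 scale). Both are induced when leukocytes are activated. Next came miR-296-5p (0.336), whose ratio overlapped between groups, and miR-184-3p of the islet list (0.379), so the ranking was not confined to leukocyte miRNAs. miR-155-5p and miR-146a-5p were picked out after their values were seen, so no test is given. For every 100 counts of miR-150-5p there were 3.30, 1.93 and 2.89 counts of miR-155-5p in control libraries 43, 44 and 45. In model libraries 56, 57 and 59 there were 26.4, 26.4 and 25.9, a mean 9.70 times that of the controls, although the level of miR-150-5p itself ran from 1429 to 5840 CPM in those libraries. The counts of miR-146a-5p per 100 of miR-150-5p were 54.4, 43.9 and 50.9 in control and 154, 92.8 and 109 in model libraries. Levels of miR-155-5p were 377, 1542 and 801 CPM in model libraries 56, 57 and 59, the same order as those of miR-150-5p and miR-342-3p. Levels of miR-296-5p (153, 733 and 385 CPM) and miR-184-3p (177, 376 and 231 CPM) had this order too. The share of all rows with this order was not counted.

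The miRNAs whose ratio to miR-142a-3p varied least within groups were others: miR-1839-5p (SD 0.291 on the log2 scale), the partner arm miR-142a-5p (0.358) and the myeloid miR-223-5p (0.376), while miR-150-5p ranked 219th of 365.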
